A study of Mus musculus with 10 samples.

Results

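Brown adipocyte identity is set by a small group of transcription regulators, and 10 of them were followed here in the interscapular brown adipose tissue (iBAT) of Axl KO and wild-type (WT) mice: Prdm16, Ehmt1, Ebf2, Zfp516, Cebpa, Cebpb, Atf2, Irf4, Zic1 and Tbx15. They are named for their known roles, with earlier results of these data known, and are 10 of the 41249 gene identifiers in the count tables and 10 of the 13739 genes with enough reads to be tested, those with a mean above 1 CPM over all mice (CPM is the count of a gene scaled to a common library size). None of the 10 differed between Axl KO and WT mice beyond the spread between mice, while Axl itself fell by 4.77 on the log2 scale.

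Brown adipocytes arise from precursors related to those of skeletal muscle, and burn fuel as heat through the mitochondrial uncoupling protein UCP1. PRDM16, held in a complex with the histone methyltransferase EHMT1 and C/EBPβ, steers these precursors to the brown fate and away from muscle, and EBF2 opens brown-fat-selective enhancers for PPARγ. In the mature cell, β-adrenergic signaling raises cAMP, and factors such as ATF2, IRF4 and ZFP516 then act with the coactivator PGC-1α on Ucp1 and related genes.

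Whole iBAT depots of 5 Axl KO and 5 WT male mice were used for RNA sequencing, each as 1 library. Axl KO mice carried in every cell, from conception, an inserted splice-trapping LacZ and Neo cassette that ends the transcript of Axl, a receptor tyrosine kinase, early. The line was made from 2 embryonic stem cell clones, and the clone of each mouse is not given in the sources used here. The Axl KO mice and their WT littermates came from heterozygous parents on a C57Bl6 background. All mice received a high-fat diet (HFD) for 24 weeks from an age of 6 to 8 weeks at room temperature, so neither genotype had an untreated or cold-exposed group. The total count per mouse lay between 5431014 and 9580215. The Axl level of each mouse fitted its label and was 0.438 to 2.01 CPM in Axl KO and 38.3 to 52.4 CPM in WT mice (edgeR, adjusted p = 1.09e-07). The tissue label fitted the defining genes of brown fat, with Ucp1 between 2996 and 7648 CPM and Cidea between 1504 and 1979 CPM in the 10 mice. The depots also held other cells: 18 skeletal muscle genes summed to between 7.68 and 3603 CPM in Axl KO and between 822 and 4079 CPM in WT mice. In such bulk RNA, fewer cells of a type and less RNA per cell cannot be told apart.

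The promoters of 3 of the regulators are shown because they hold the sequences searched for: the cAMP response element TGACGTCA, which ATF2 and the CREB proteins bind, its core TGACG, and the TATA box TATAAA. Promoter sequences of 7 of the 10 genes were matched in RefSeq (GRCm38.p6). Both strands were searched in the 250 bases before the RefSeq start, and every full element also holds the core. Each line gives those bases 5′ to 3′ in the direction of transcription, which is the plus strand for all 3, and capitals mark TGACG on either strand in the first and TATAAA in the others.
Cebpb, chr2:167688665-167688914: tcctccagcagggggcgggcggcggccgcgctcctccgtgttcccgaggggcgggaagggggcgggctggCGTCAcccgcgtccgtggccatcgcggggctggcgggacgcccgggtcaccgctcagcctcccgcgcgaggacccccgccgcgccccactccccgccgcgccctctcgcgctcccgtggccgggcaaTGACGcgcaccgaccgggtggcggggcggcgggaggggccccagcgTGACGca
Cebpa, chr7:35119043-35119292: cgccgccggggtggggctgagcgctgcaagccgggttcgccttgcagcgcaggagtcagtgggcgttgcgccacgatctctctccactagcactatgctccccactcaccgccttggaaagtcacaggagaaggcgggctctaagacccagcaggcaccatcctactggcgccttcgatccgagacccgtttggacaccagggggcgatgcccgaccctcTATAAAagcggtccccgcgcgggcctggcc
Irf4, chr13:30748983-30749232: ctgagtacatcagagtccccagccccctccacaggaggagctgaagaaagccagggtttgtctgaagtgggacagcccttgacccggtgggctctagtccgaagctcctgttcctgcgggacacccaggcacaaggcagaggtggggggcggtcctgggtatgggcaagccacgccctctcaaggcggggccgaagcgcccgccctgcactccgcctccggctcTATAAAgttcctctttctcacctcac
The Cebpb promoter was 81.6% G or C and held the core 3 times, 53 to 49 and 7 to 3 bases before the start on the plus strand and 180 to 176 bases before it on the minus strand. The core occurred 1 or more times in 17.8% of 32851 promoters of the same length, and Cebpb was the only 1 of the 7 with it. The TATA box lay 30 to 25 bases before the start of Cebpa and 26 to 21 bases before that of Irf4, and occurred in 12.4% of all promoters. The full element was in 1.55% of all promoters and in 0 of the 7. A match describes the letters and is not a binding site, and no match concerns this window alone.

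Between genes, levels can be compared only per length, here as CPM per kb of annotated exons. Cebpa, which drives the general adipocyte program, stood at 142 ± 24.9 CPM per kb (SD, n = 10) and was the most abundant of the 10, above 97.6% of all tested genes. Cebpb followed at 41.9 ± 9.74, then Ebf2 at 19.6 ± 1.81, Atf2 at 15.4 ± 1.45, Ehmt1 at 5.95 ± 0.460 and Prdm16 at 3.70 ± 0.593 CPM per kb. Prdm16, the best known switch of the brown fate, thus lay in the middle of all tested genes (percentile 46.8) and Cebpa was 89.9 times as abundant as the least abundant of the 10. The last 4 were Zfp516 at 2.43 ± 0.200, Irf4 at 2.38 ± 1.09, Tbx15 at 1.79 ± 1.01 and Zic1 at 1.58 ± 0.313 CPM per kb.

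**Figure D1:**
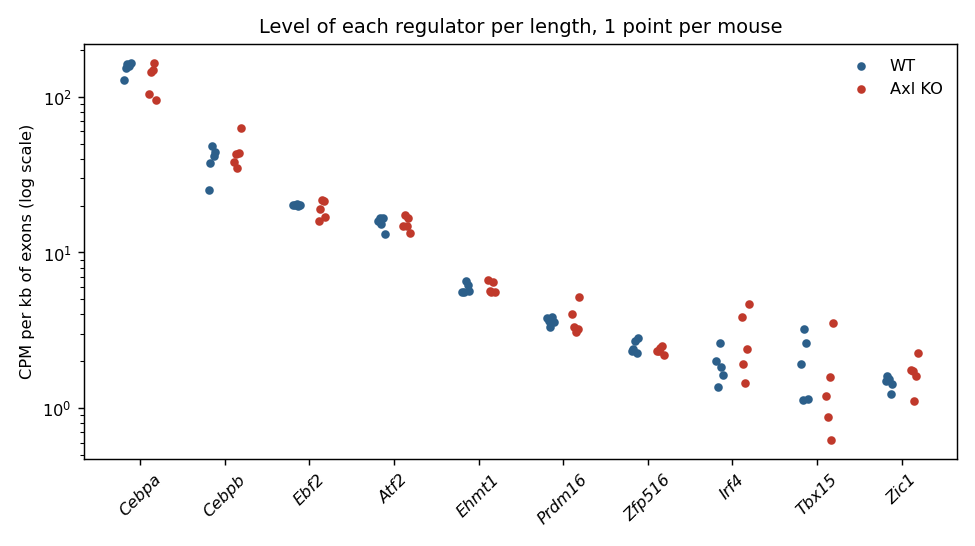
Level of each regulator in CPM per kb of exons on a log axis, ordered by the mean of 10 mice; each point is 1 mouse, WT in blue and Axl KO in red. Cebpa lies highest at a mean of 142 CPM per kb, and the points of Zfp516, Irf4, Tbx15 and Zic1 overlap.

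Each of the first 6 steps in this order, from Cebpa down to Zfp516, held in 10 of 10 mice (two-sided exact permutation test with sign flips, p = 0.00195, the smallest that 10 mice allow, adjusted p = 0.00293 over the 9 steps). The order was taken from the same 10 mice, and the test takes the annotated lengths as exact. Neighbours among the last 4 did not differ beyond their spread over the 10 mice. The log2 difference in level was 0.14 ± 0.63 (SD) between Zfp516 and Irf4 (adjusted exact p = 0.525). It was 0.51 ± 0.84 between Irf4 and Tbx15 (adjusted exact p = 0.123) and -0.01 ± 0.86 between Tbx15 and Zic1 (adjusted exact p = 0.990). By mean level the last 4 ran Zfp516, Tbx15, Irf4, Zic1 in WT and Irf4, Zfp516, Zic1, Tbx15 in Axl KO mice. Of the 5 WT mice, 5 had Zfp516 above Irf4 (exact p = 0.0625, the smallest that 5 mice allow). Irf4 was above Tbx15 in 3 of them, and Tbx15 above Zic1 in 3. Ebf2 and Atf2 changed places when the longest transcript served as the length, at 26.1 and 30.0 CPM per kb, so their order rests on the annotation.

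Against this order of levels, the comparison of genotypes asks whether loss of Axl moved the regulators themselves. Of the 10, 0 passed an adjusted p of 0.05 and 0 an unadjusted p of 0.05 in edgeR, where 0.00728% and 8.38% of the 13739 tested genes did. DESeq2 gave 0 with an adjusted p under 0.05, where it called 0.0169% of 23722 genes, and 1, Irf4, with an unadjusted p under 0.05, which 4.33% of the 23722 had. In 0 of the 10 did the groups stand apart without overlap, against 1.36% of all tested genes. In Axl KO mice 5 had a higher and 5 a lower mean, and 49.7% of all genes had a higher one. The median size of the log2 fold change, sign left out, was 0.13 for the 10 and 0.10 for all genes, and 8 of the 10 lay within 20% of the WT level.

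**Figure D2:**
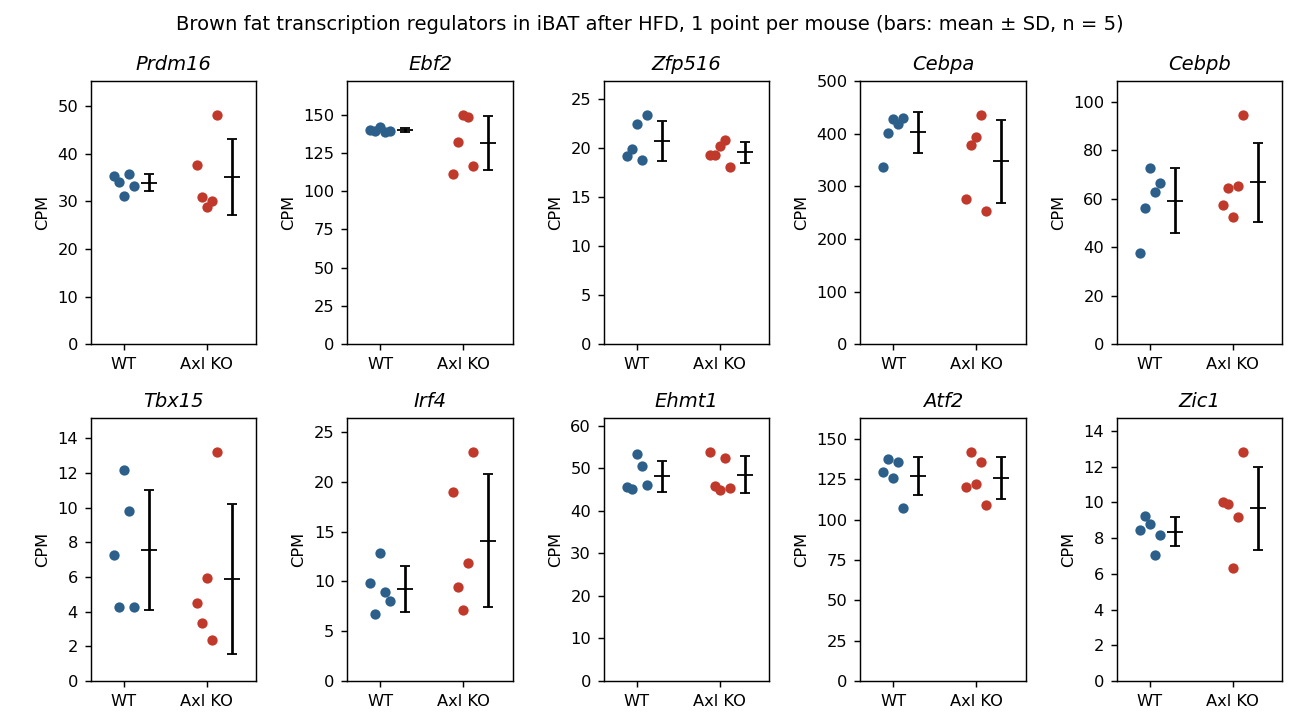
Level of each regulator in CPM in each mouse, WT in blue and Axl KO in red, with the mean and SD (n = 5) beside the points; axes start at 0 and differ between genes. The groups overlap for all 10 genes, the 5 WT mice lie close together for Ebf2 and Prdm16, and 2 Axl KO mice stand above the WT mice for Irf4.

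Prdm16 (ENSMUSG00000039410, chr4:154316125-154636873, minus strand, GRCm38), the zinc finger regulator that sets the brown fate, was at 37.7, 30.9, 28.7, 30.2 and 48.1 CPM in Axl KO mice 1 to 5 and at 35.3, 34.1, 31.2, 35.7 and 33.3 CPM in WT mice 1 to 5. All 5 Axl KO mice lay outside the WT range, 2 above it and 3 below it, and the means were 35.1 ± 8.03 and 33.9 ± 1.80 CPM (SD, n = 5 each). The log2 fold change was 0.04 (SE 0.12, 95% interval -0.22 to 0.31; edgeR, adjusted p = 0.940), and without Axl KO mouse 5 it was -0.09. The coefficient of variation was 22.9% in Axl KO and 5.30% in WT mice, where counting error alone gives 6.59% and 6.20%. The WT spread was thus no larger than counting error, and the spreads were not tested against each other.

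Ehmt1 (ENSMUSG00000036893, chr2:24789928-24919614, minus strand) encodes the histone H3 lysine methyltransferase of the PRDM16 complex. It was at 53.8, 45.8, 44.97, 52.5 and 45.4 CPM in Axl KO and 45.6, 45.2, 53.3, 50.5 and 46.0 CPM in WT mice, so both groups held a pair of higher mice and covered the same range. Its log2 fold change was 0.01 (SE 0.07), with a 95% interval of 0.901- to 1.13-fold. Other parts of the complex were also near 0: its partner methyltransferase Ehmt2 had a log2 fold change of -0.04 (SE 0.08), the demethylase Kdm1a -0.04 (SE 0.07), and the corepressors Ctbp1 and Ctbp2 0.02 (SE 0.06) and -0.09 (SE 0.08).

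Ebf2 (ENSMUSG00000022053, chr14:67233292-67430918, plus strand), the lineage factor that marks brown precursors, was at 111, 132, 149.5, 148 and 117 CPM in Axl KO mice and at 139.9, 139.6, 142, 138 and 139 CPM in WT mice. The 5 WT mice were nearly equal, with a coefficient of variation of 0.941%, below the 3.06% of counting error alone, and the Axl KO mice spread over 13.4%. As for Prdm16, all 5 Axl KO mice lay outside the WT range, 3 below and 2 above. For how many of all tested genes this holds was not counted. The means were 131.6 ± 17.6 and 139.8 ± 1.32 CPM and the log2 fold change was -0.09 (SE 0.08, 95% interval -0.26 to 0.09; edgeR, adjusted p = 0.787). The spreads were not tested against each other.

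Zfp516 (ENSMUSG00000058881, chromosome 18), a cold-responsive zinc finger protein that works with PRDM16 on Ucp1, was at 19.3, 19.3, 20.2, 20.9 and 18.1 CPM in Axl KO and 19.2, 19.9, 22.5, 18.8 and 23.3 CPM in WT mice. No Axl KO mouse was above the WT range and 1 was below it. The log2 fold change was -0.08 (SE 0.08, 95% interval -0.26 to 0.09). Among related lineage factors, the log2 fold change was 0.16 (SE 0.14) for Ebf1, 0.11 (SE 0.08) for Nfia, which acts ahead of PPARγ in brown fat, -0.05 (SE 0.11) for Zfp423, a keeper of white fat identity, and -0.02 (SE 0.13) for Tle3, a corepressor that opposes PRDM16.

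Cebpa (ENSMUSG00000034957, chr7:35119293-35121928, plus strand) was at 276, 379, 393, 435 and 253 CPM in Axl KO mice and at 337, 401, 429, 418 and 431 CPM in WT mice. Axl KO mice 1 and 5 were below every WT mouse, mouse 4 was above them all, and the other 2 lay inside the WT range. The means were 347 ± 78.7 and 403 ± 38.9 CPM, and the log2 fold change was -0.21 (SE 0.14, 95% interval of the fold 0.700 to 1.06; edgeR, adjusted p = 0.677).

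Cebpb (ENSMUSG00000056501, chr2:167688915-167690418, plus strand), the early, cAMP-inducible member of the C/EBP family, was at 57.4, 64.3, 52.4, 65.5 and 94.5 CPM in Axl KO and 37.8, 56.1, 72.6, 62.7 and 66.7 CPM in WT mice. Axl KO mouse 5 was the highest and WT mouse 1 the lowest, with the other 8 between 52.4 and 72.6 CPM. The log2 fold change was 0.17 (SE 0.18, 95% interval -0.22 to 0.56) and was 0.01 without Axl KO mouse 5 and 0.04 without WT mouse 1. The opposite-strand gene Tmem189 overlaps 20.7% of the Cebpb exons and had 1690 reads against 4522 for Cebpb, and the strand setting of the counting is not given in the sources used here. Cebpd, the third adipogenic member of the family, had few reads and a log2 fold change of 0.22 (SE 0.35), and their shared partner Pparg 0.10 (SE 0.05; edgeR, adjusted p = 0.645).

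Atf2 (ENSMUSG00000027104, chr2:73816509-73892639, minus strand), which p38 kinase phosphorylates downstream of cAMP, was at 120.3, 142, 122, 136 and 109 CPM in Axl KO and 129.7, 137, 126, 135 and 107 CPM in WT mice. The ranges were almost the same, the log2 fold change was -0.01 (SE 0.09), and the 95% interval ran from 0.871- to 1.13-fold. These are transcript levels and do not measure phosphorylation. None of the related factors passed the test, with a log2 fold change of 0.06 (SE 0.06) for Creb1, -0.18 (SE 0.10) for Atf1, -0.13 (SE 0.08) for Atf7 and 0.07 (SE 0.08) for the p38α kinase gene Mapk14. Ppargc1a, which encodes PGC-1α, was at 70.0 ± 8.19 CPM in Axl KO and 69.0 ± 10.4 CPM in WT mice.

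Irf4 (ENSMUSG00000021356, chr13:30749226-30766976, plus strand), which pairs with PGC-1α at thermogenic genes and is raised by fasting and cold, had the largest fold change of the 10. It was at 19.0, 9.49, 7.13, 11.8 and 23.0 CPM in Axl KO and 9.85, 6.68, 12.9, 8.96 and 8.07 CPM in WT mice. Axl KO mice 1 and 5 stood above every WT mouse, and the other 3 lay inside the WT range. The means were 14.1 ± 6.68 and 9.28 ± 2.32 CPM, and the log2 fold change was 0.58 (SE 0.29, 95% interval -0.06 to 1.21; edgeR, unadjusted p = 0.0721, adjusted p = 0.608). A two-sided exact permutation test gave p = 0.206, where 0.00794 is the smallest possible and where no other of the 10 genes was lower. The log2 fold change was 0.34 without Axl KO mouse 5 and 0.43 without Axl KO mouse 1.

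IRF4 is also a factor of lymphocytes and macrophages. The 12 lymphocyte genes, of which only Ighm had enough reads to be tested, summed to between 20.6 and 43.6 CPM in Axl KO and between 16.6 and 75.0 CPM in WT mice, with 31.4 and 38.8 CPM in Axl KO mice 1 and 5. The 10 macrophage genes summed to between 149 and 276 CPM in Axl KO and between 169 and 258 CPM in WT mice, with 189 and 235 CPM in Axl KO mice 1 and 5. The lymphocyte sum was highest in WT mouse 5 and the macrophage sum in Axl KO mouse 3. The part of these cells in the Irf4 values was not tested.

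**Figure D3:**
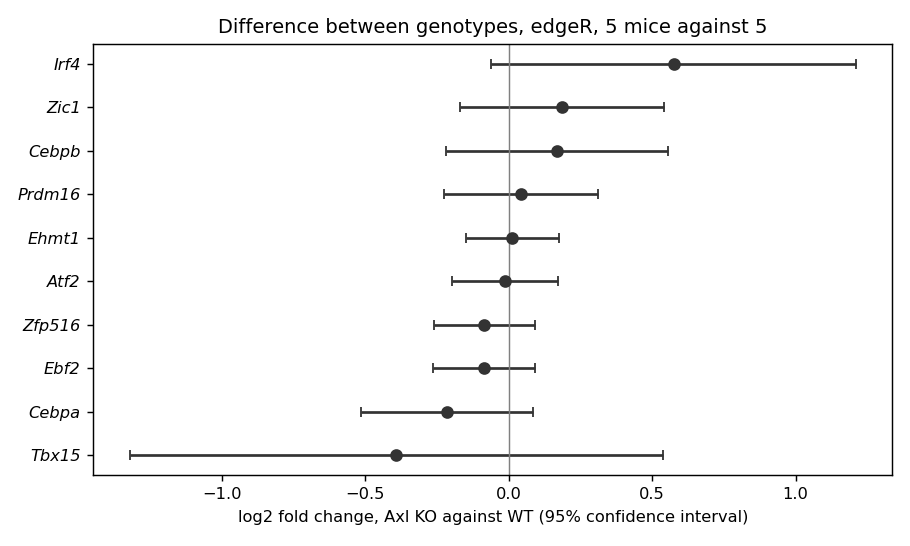
Log2 fold change of each regulator between 5 Axl KO and 5 WT mice with its 95% interval from edgeR, ordered by size; the vertical line marks no difference. All 10 intervals include 0, from the narrow one of Ehmt1, -0.15 to 0.17, to that of Tbx15, -1.32 to 0.54.

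Zic1 (ENSMUSG00000032368, chr9:91358058-91365810, minus strand), a zinc finger gene used as a marker of classical brown fat, was at 10.05, 9.94, 6.31, 9.19 and 12.8 CPM in Axl KO and 8.48, 9.23, 8.81, 7.06 and 8.20 CPM in WT mice. Of the Axl KO mice, 3 were above the WT range and 1 below it. It had a log2 fold change of 0.19 (SE 0.16, 95% interval -0.17 to 0.54), from 41 to 87 reads per mouse. Its coefficient of variation was 24.1% in Axl KO and 9.79% in WT mice, where counting error alone gives 12.6% in each. The related gene Zic2 had 2 reads in all, too few to test.

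Tbx15 (ENSMUSG00000027868, chr3:99240381-99354259, plus strand), a T-box factor of interscapular and subcutaneous fat, was at 4.48, 3.31, 5.96, 2.33 and 13.2 CPM in Axl KO and 7.25, 4.24, 12.2, 9.82 and 4.29 CPM in WT mice. It varied most of the 10, from 16 to 105 reads and over a 5.66-fold range in CPM, and the highest mouse of all was an Axl KO mouse. The log2 fold change of -0.39 (SE 0.43) had a 95% interval of 0.400- to 1.45-fold, the widest of the 10. It was -0.87 without Axl KO mouse 5 and -0.13 without WT mouse 3. The related gene Tbx18 had a log2 fold change of -0.05 (SE 0.18).

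Tbx15 is also expressed in skeletal muscle, and across the depots its rank rose with that of the muscle genes. The 18 muscle genes summed to 29.4, 7.68, 1776, 620.0 and 3603 CPM in Axl KO and to 3412, 870, 4079, 3289 and 822 CPM in WT mice. The 4 mice with the most muscle RNA, 1 Axl KO and 3 WT, were the 4 with the most Tbx15, and the Axl KO mice with almost no muscle RNA, mice 1 and 2, still had 4.48 and 3.31 CPM of Tbx15. Axl KO mouse 4, with 620.0 CPM of muscle genes, had the least Tbx15 of all mice, 2.33 CPM. Across the 10 mice, log2 Tbx15 against the mean log2 level of the muscle genes gave Spearman's rho = 0.867 (permutation test, adjusted p = 0.0485 over 50 relations) and Pearson's r = 0.688 (adjusted p = 0.419). Without the 2 mice farthest from the median muscle level r was 0.958, and with the genotype means removed 0.645. Of the 18 muscle genes, 14 were tested, 0 were higher in Axl KO mice and 0 passed the test, with a median log2 fold change of -1.02 and a range from -1.36 for Pvalb to -0.55 for Myf6. The part of muscle in the Tbx15 values was not tested.

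**Figure D4:**
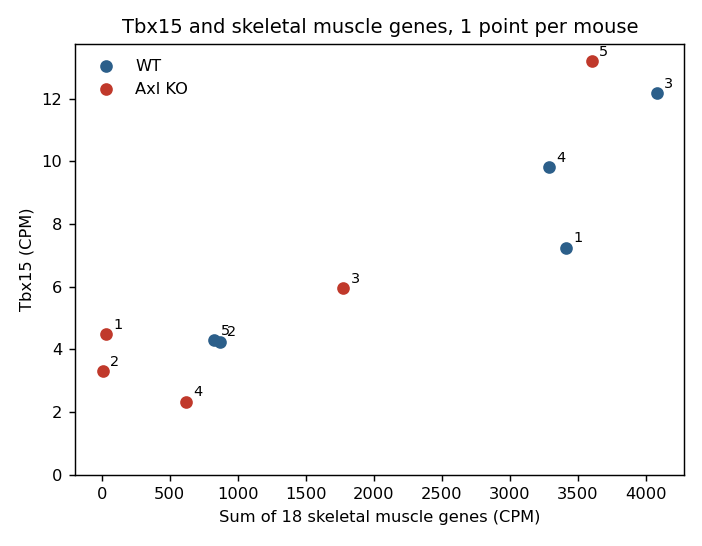
Tbx15 in CPM against the sum of 18 skeletal muscle genes in CPM, 1 point per mouse with its replicate number, WT in blue and Axl KO in red. The 4 mice with the most muscle RNA, from 3289 CPM up, have the most Tbx15, and Axl KO mice 1 and 2, at 29.4 and 7.68 CPM of muscle genes, have 4.48 and 3.31 CPM.

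The same 50 relations, of the 10 regulators with the muscle, fibroblast, macrophage, endothelial and erythroid genes, held 1 more that passed by rank. Zic1 ran against the endothelial genes with rho = -0.879 (permutation test, adjusted p = 0.0485) and r = -0.656 (adjusted p = 0.419), and with r = -0.902 without the 2 mice farthest from the median endothelial level. By Pearson's r, 0 of the 50 passed the adjustment and 5 had an unadjusted p under 0.05. The 9 endothelial genes summed to between 608 and 752 CPM in Axl KO and between 625 and 889 CPM in WT mice, with 2 of 9 higher in Axl KO mice. Their part in the Zic1 values was not tested.

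How the regulators moved together was examined across the 10 mice, genotype aside. Of the 45 pairs, 11 had an unadjusted permutation p under 0.05 for Pearson's r and 0 passed the adjustment. The strongest negative pair was Prdm16 and Cebpa, with r = -0.814 (permutation p = 0.00425, adjusted p = 0.110) and rho = -0.576 (permutation p = 0.0880, adjusted p = 0.498); r was -0.691 without the 2 mice farthest from the median of Prdm16. The strongest positive pair was Ebf2 and Cebpa, with r = 0.873 (permutation p = 0.00683, adjusted p = 0.110) and rho = 0.576 (permutation p = 0.0865, adjusted p = 0.498). Its r fell to 0.286 without the 2 mice farthest from the median of Ebf2, Axl KO mice 1 and 5. Within genotypes, r of this pair was 0.929 in Axl KO and 0.0448 in WT mice. For Prdm16 and Cebpa it was -0.933 in Axl KO and -0.541 in WT mice. Without Axl KO mouse 5, r was 0.826 for Ebf2 and Cebpa and -0.600 for Prdm16 and Cebpa. Without Axl KO mice 1 and 5, r was 0.286 and -0.261. These 2 mice were picked after their values were seen, and for Ebf2 they are also the 2 farthest from its median. They lie at the ends of these genes' ranges, and leaving out such mice can by itself lower r.

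**Figure D5:**
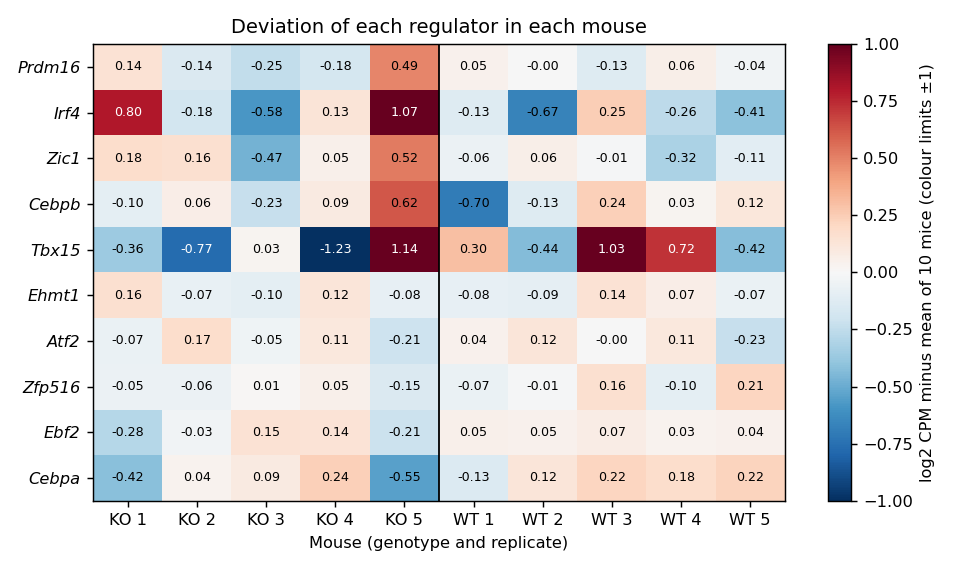
Deviation of each regulator from its mean over 10 mice, in log2 CPM, with rows ordered to set Prdm16 and Irf4 apart from Ebf2 and Cebpa; colours stop at ±1. Axl KO mouse 5 has Prdm16 at 0.49, Irf4 at 1.07 and Cebpa at -0.55, and Axl KO mouse 1 has Irf4 at 0.80 and Cebpa at -0.42.

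Axl KO mice 1 and 5 had the most Prdm16 and Irf4 and the least Cebpa and Ebf2 of the 10 mice. In mouse 5 the log2 deviation from the mean of 10 mice was 0.49 for Prdm16, 1.07 for Irf4, 0.52 for Zic1, 0.62 for Cebpb and 1.14 for Tbx15, against -0.55 for Cebpa and -0.21 for Ebf2. Mouse 1 shared the first pattern, with 0.14 for Prdm16, 0.80 for Irf4, -0.42 for Cebpa and -0.28 for Ebf2, but not the high Cebpb (-0.10) and Tbx15 (-0.36). Mouse 5 was the library with the fewest reads, 5431014, and was rich in muscle genes while mouse 1 had almost none. The part of depth in these values was not tested.

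For the 4 regulators that ranged over at least 2-fold, the genes with the most similar profile were sought, by the root mean square distance between centred log2 CPM values over 10 mice. Nearest to Irf4 was Igfbp3, which binds insulin-like growth factors, at a distance of 0.17 where the spread of Irf4 itself was 0.54, followed by complement gene C3 and Atg9b. Nearest to Cebpb was the insulin-regulated factor Foxo1, at 0.11 of 0.32, followed by Capn10 and Chka. Zic1 was nearest to the mitochondrial carrier gene Slc25a33, at 0.11 of 0.26, then Aven and Lpl, the lipoprotein lipase gene. Tbx15 was nearest to Amot, at 0.28 of 0.75, then Shisa2 and Abcb4. All were picked as the smallest distances among the 13739 tested genes, so small distances follow in part from the search. Shared regulation was not tested.

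The wider set held 51 partners and cofactors of these regulators. Of these, 47 were tested, 24 were higher and 23 lower in Axl KO mice, 0 passed the adjusted p, and the median log2 fold change was 0.01 against -0.00078 for all tested genes. Jun, an AP-1 partner of ATF2, was lowest at -0.34 (SE 0.14; edgeR, unadjusted p = 0.0267, adjusted p = 0.572) and the only 1 of the 47 with an unadjusted p under 0.05, where 8.38% of all genes had one. Dpf3, a chromatin remodeling subunit, was highest at 0.33 (SE 0.17). Of the 21 partners singled out by role, 19 had enough reads and lay between -0.18 for Atf1 and 0.22 for Cebpd; beside those given above, Gtf2ird1 was at 0.01 (SE 0.13), Klf11 at -0.05 (SE 0.19) and Zbtb16 at -0.16 (SE 0.31). Zic2 and Bmp7, a ligand that drives the brown fate, were too low to test.

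Genes that these regulators are known to control, or that mark the fates they choose between, were set beside them. These lists were chosen with earlier results of these data known, so their shares beside those of all genes are no independent test. Of 27 brown-fat-selective genes, 26 were tested and 21 were higher in Axl KO mice, where 49.7% of all genes were, with a median log2 fold change of 0.12; 7 were higher and 1 lower at an unadjusted p under 0.05, where 4.52% and 3.86% of all genes were, and 0 passed the adjustment. They ranged from 1.67 (SE 0.49) for Elovl3, the elongase of very long fatty acids, to -0.39 (SE 0.11) for the neurotrophin receptor gene Ntrk3. The 17 general adipocyte genes, with 13 higher, had a median of 0.08 and ran from 0.29 (SE 0.12) for Agpat2 of triglyceride synthesis to -0.10 (SE 0.07) for the lipid droplet coat gene Plin1.

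Of 18 white-fat-selective genes, 11 were tested, 3 were higher and the median was -0.24. It was -0.13 with DESeq2, which also held listed genes too low for the edgeR filter, and -0.11 without Axl KO mouse 4. Slc7a10, an amino acid transporter, was highest at 0.61 (SE 0.23) and Gadd45a lowest at -0.86 (SE 0.34), and Tcf21 and Hoxc9 were at 0 in all mice. Of 14 interferon-responsive genes, a program that PRDM16 is known to repress, 11 were tested, 5 were higher and the median was -0.08, which turned to 0.05 without WT mouse 5 and also lay above 0 without Axl KO mouse 2, 4 or 5. Single genes ran from 0.19 (SE 0.34) for Usp18 to -0.45 (SE 0.27) for Ifit3. In both lists 0 passed the adjustment.

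The remaining cell type genes also held 0 that passed. Of 11 fibroblast and progenitor genes, 1 was higher in Axl KO mice, Ly6a at 0.27 (SE 0.10), and Col1a1 was lowest at -0.43 (SE 0.18), with sums of 476 to 768 CPM in Axl KO and 644 to 837 CPM in WT mice. The 10 macrophage genes had 5 higher and ran from Cd68 at 0.22 (SE 0.27) to Adgre1 at -0.17 (SE 0.18), the 9 endothelial genes from Emcn at 0.12 (SE 0.13) to Cldn5 at -0.73 (SE 0.20), and the 5 erythroid genes from Hbb-bt at 0.10 (SE 0.14) to Hba-a1 at -0.11 (SE 0.16). Ighm, the tested lymphocyte gene, had a log2 fold change of -0.43 (SE 0.37). What these cells contributed to the values of the regulators was not tested, except as the correlations above describe.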

How the data were processed

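RNA of iBAT was sequenced from 10 mice (TruSeq RNA kit). The authors deposited 1 table per mouse with raw counts of reads per Ensembl gene. The paper names Trim Galore, hisat2 and GRCm38 and rRNA-depleted RNA. The submitters' processing notes name Trimmomatic 0.36, STAR 2.6.1c and GRCm38.p5, and the labels polyadenylated RNA. The age and length of HFD follow the labels and differ somewhat in the paper. The counting tool, strand setting and Ensembl release are not given in the sources used here, so genes that overlap or resemble each other are uncertain; the longest stretch that a regulator shared with a paralog was 42 bases (Zic1 and Zic4). The 10 regulators, the partners and all gene lists were chosen with earlier results of these data known.

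Symbols were taken from GENCODE M21, which holds 41079 of the 41249 identifiers. Counts were compared in R 4.3.3 with edgeR 4.0.16 (TMM, quasi-likelihood test, no covariate, limma 3.58.1 underneath) over 13739 genes with a mean above 1 CPM, with Benjamini-Hochberg adjustment; the biological coefficient of variation was 14.8%. CPM uses TMM library sizes, and log2 CPM a prior count of 2. Correlations used 100000 permutations. No pair of mice agreed within counting noise (lowest chi-square 5.46 for each gene compared), and every mouse counted as 1 replicate. P-values measure the spread between mice. The fit was tested on simulated data. Replicate numbers were not treated as pairs of mice, and whether they follow litters was not tested.

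Named genes are the 10 regulators, Axl, 21 partners, the highest and lowest tested fold change of each list, and the 3 nearest profiles of regulators that ranged at least 2-fold; Ucp1 and Cidea check the tissue. Alternatives were DESeq2 1.42.0, RLE and upper-quartile factors, filterByExpr, no filter, a robust fit, protein-coding genes alone, each mouse left out, the replicate block, genotype means removed and the longest transcript as length. The correlations without Axl KO mouse 5, and without mice 1 and 5, were chosen after seeing the data.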

Additional observations from a re-analysis of the deposited data

How the results depend on the processing

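No regulator passed an adjusted p of 0.05 under any alternative fit. Leaving out 1 mouse at a time, log2 fold changes ran from -0.0902 to 0.111 for Prdm16, which turned to -0.0902 without Axl KO mouse 5, from -0.0267 to 0.0526 for Ehmt1, from -0.0691 to 0.0318 for Atf2, from 0.34 to 0.76 for Irf4, from -0.87 to -0.13 for Tbx15, from 0.01 to 0.26 for Cebpb, from -0.31 to -0.12 for Cebpa, from 0.07 to 0.31 for Zic1, from -0.14 to -0.03 for Ebf2 and from -0.12 to -0.04 for Zfp516; the lowest adjusted p was 0.223, for Irf4. Ehmt1 was at -0.00088 with upper-quartile factors. DESeq2 called 4 genes and edgeR 1. The number of white-fat-selective genes higher in Axl KO mice was 5 with DESeq2 and 5 with no filter, and 3 to 5 with each mouse left out; that of interferon genes was 3 to 7. Over the same fits the median ran from -0.33 to -0.11 for white-fat-selective, from -0.16 to 0.05 for interferon, from 0.09 to 0.15 for brown-fat-selective and from 0.03 to 0.13 for general adipocyte genes, and from -0.03 to 0.03 for the partners. With no filter the white-fat-selective median was -0.14. DESeq2 and the fit with no filter also held listed genes below 1 CPM, and each fit without 1 mouse was filtered anew. These counts and medians therefore do not all cover the same genes. The part of this in the shifts was not tested. Tbx15 varied by 73.8% in Axl KO and 45.9% in WT mice, where counting error alone gives 18.2% and 13.9%, and Irf4 by 47.4% and 24.9%, where it gives 10.92% and 12.05%.

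The replicate numbers were not treated as pairs, since same-numbered mice deviated together with r between -0.36 and 0.37 and 1 of 5 mice was nearest its own number. With the replicate block, 1 gene was called and Irf4 had a log2 fold change of 0.51, and the block changed no call among the regulators. No pair of regulators passed the adjustment with genotype means removed, without Axl KO mouse 5 or without Axl KO mice 1 and 5.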
